A study of Mus musculus with 80 samples.

Results

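The expression of 10 genes known as transcriptional targets or nuclear factors of the Wnt and beta-catenin pathway was followed in mouse embryonic stem cells (ESCs) as they moved from serum to 2i. The genes were Axin2, Nkd1, Notum, Sp5, Cdx1, Cdx2, T, Lef1, Tcf7 and Tcf7l1, taken by symbol from an RNA-seq table of 25965 genes, and all 10 were found. The RNA-seq covered 12 libraries of E14, a wild-type mouse ESC line, with 3 replicates each in serum and at 6, 24 and 72 h of 2i. All cells received LIF. The serum groups grew in medium with fetal calf serum, and the 2i groups in serum-free N2B27 with the MEK inhibitor PD0325901 and the GSK3 inhibitor CHIR99021. Because the loss of serum and the addition of both inhibitors came together, the effects of GSK3 inhibition, MEK inhibition and the change of medium cannot be told apart in these groups. H3K9me2 ChIP-seq of the same line in serum, at 24 h of 2i and in long-term 2i (LT2i), with 2 bound libraries and 1 input per group, was read at the starts of the 10 genes. All groups came from 1 cell line, and p-values measure the spread between these replicates only.

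In the Wnt pathway, a complex of Axin, APC and the kinases CK1 and GSK3 marks beta-catenin for degradation. When a Wnt ligand binds its receptors, or when GSK3 is blocked by a compound such as CHIR99021, beta-catenin escapes this mark, enters the nucleus and binds the TCF/LEF factors on DNA. In ESCs the most abundant of these factors is known to be TCF7L1, a repressor of pluripotency genes whose hold is eased by beta-catenin, while TCF7 and LEF1 mainly pass on activation. Among the best known targets are negative feedback genes of the pathway itself (Axin2, Nkd1 and Notum) and transcription factors of the posterior embryo (Sp5, Cdx1, Cdx2 and T).

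TCF/LEF factors recognise DNA with the core letters CTTTGA, read as TCAAAG on the other strand. RefSeq promoter windows, reaching from 250 bases before to 50 bases after a start site in the build GRCm38.p6, were at hand for 8 of the 10 genes (not for Notum and Cdx1), and the core was searched on both strands. It was found in windows of 3 of these 8 genes, Sp5, T and Lef1, against 18.2% of all 27025 genes with a window. The longer form CTTTGAT, also searched on both strands, was found only at Sp5 among the 8, against 4.29% of all genes. The windows of Sp5 (chr2:70474673-70474972, plus strand) and T (chr17:8434173-8434472, plus strand) are printed because both hold the core near the start. That of Axin2 (chr11:108920099-108920398, plus strand) is printed as the window of a classical target with no match, which says only that these letters are not in these 300 bases. Capitals mark the core.
Sp5: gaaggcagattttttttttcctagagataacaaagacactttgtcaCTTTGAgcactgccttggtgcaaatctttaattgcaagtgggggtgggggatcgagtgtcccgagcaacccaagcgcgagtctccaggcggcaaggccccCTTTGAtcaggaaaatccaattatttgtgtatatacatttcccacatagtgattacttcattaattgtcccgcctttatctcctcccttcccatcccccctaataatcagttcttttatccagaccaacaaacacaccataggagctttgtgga
T: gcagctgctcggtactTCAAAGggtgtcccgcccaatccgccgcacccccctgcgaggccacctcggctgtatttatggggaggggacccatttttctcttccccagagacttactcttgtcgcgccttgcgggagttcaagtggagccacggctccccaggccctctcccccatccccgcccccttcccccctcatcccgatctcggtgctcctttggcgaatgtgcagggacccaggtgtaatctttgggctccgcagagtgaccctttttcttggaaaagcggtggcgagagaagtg
Axin2: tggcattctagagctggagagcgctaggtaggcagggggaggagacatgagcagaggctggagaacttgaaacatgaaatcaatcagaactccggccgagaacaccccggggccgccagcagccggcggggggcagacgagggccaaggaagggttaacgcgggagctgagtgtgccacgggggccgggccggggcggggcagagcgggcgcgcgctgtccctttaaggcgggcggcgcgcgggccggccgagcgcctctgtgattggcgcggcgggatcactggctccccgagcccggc
In the Sp5 window the first bases of the cores lay at -204 and -104 relative to the start, and the second was part of the longer form. In the T window the core lay at -234 on the opposite strand. Lef1 has 4 windows, and its 2 cores, at -180 and -120, were in the window farthest into the gene, 45823 bases from the start used in the expression table. The only Nkd1 window lies 6289 bases from the start used in that table, so the bases at that start were not searched.

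Expression is given as the log2 value of the deposited table. Its scaling is not stated but can be read from what 1 read is worth: for 497 of 585 genes spanning under 1500 bases the length this implies equalled the span within 1%, and for 0 of 12930 genes was the implied length above the span. Levels are therefore taken as per length and per depth when genes are set side by side. The lengths implied for the 10 genes ran from 1750 bases (Cdx1) to 8654 bases (Lef1). Replicates 1, 2 and 3 stand in that order throughout. A gene was called changed at a Benjamini-Hochberg adjusted p under 0.05 over 12306 tested genes (limma), and all 10 genes passed the filter for testing, a log2 value of 0 or more in at least 3 libraries. Nkd1, Cdx2, T and Lef1 met it in 4 to 7 of the 12 libraries. Nkd1 and Cdx2 met it only in 2i and Lef1 only in serum and at 6 h. T met it in every serum and 6 h library and otherwise only in 72 h replicate 3 (0.016). These genes thus entered the test through the groups where they were high, and their calls and fold changes are given as a description only. Among the 24 h libraries, replicate 3 stood apart as the most like serum (mean r over genes with the serum libraries 0.901, against 0.835 and 0.858), and results that rest on it are also given without it.

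At 6 h, 5 of the 10 genes were called, with Axin2, Nkd1, Sp5 and Cdx1 higher and Lef1 lower, while 15.6% of all tested genes were called (9.13% higher and 6.48% lower). That share was 29.1% when only the 2 groups compared were fitted, with 7 of the 10 called, and 1230 genes were called without 6 h replicate 2, with 5 of the 10. At 24 h, 6 were called against 63.3% of all tested genes (34.2% higher and 29.1% lower), and at 72 h 6 against 52.2% (25.7% higher and 26.5% lower), so that the share among the 10 was close to that of all genes at both later times. The 24 h calls were Nkd1 and Cdx1 higher and Notum, Cdx2, T and Lef1 lower. At 72 h Axin2, Nkd1 and Cdx1 were higher and Notum, T and Lef1 lower. Among these calls, Nkd1, Cdx2, T and Lef1 are the genes that entered the test through the groups where they were high. The median change of the 10 genes was 0.86 on the log2 scale at 6 h, -0.39 at 24 h and 0.055 at 72 h, beside 0.011, 0.11 and -0.0052 over all tested genes. The libraries did not overlap with those of serum for 7 of the 10 genes at 6 h (44.4% of all tested genes), 6 at 24 h (64.7%) and 6 at 72 h (63.5%). The 3 times were compared with the same serum libraries. Fewer cells expressing a gene and less RNA per cell cannot be told apart in these bulk samples.

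**Figure D1:**
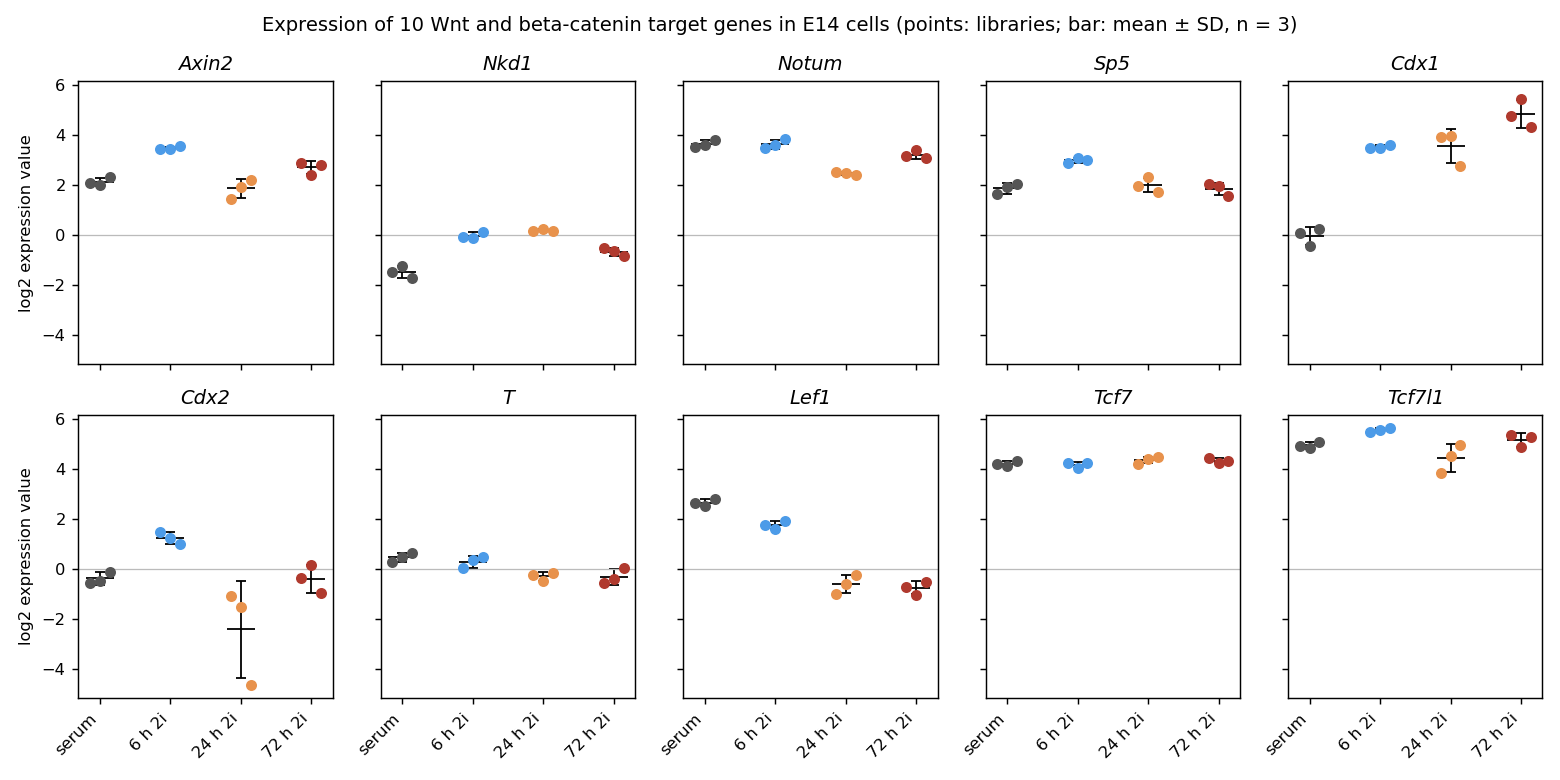
Log2 expression value (vertical axis, corrected for length and depth) of the 10 genes in serum and at 6, 24 and 72 h of 2i (horizontal axis), with 1 point per library and the mean ± SD of 3 replicates. Axin2 and Sp5 stand highest at 6 h, Cdx1 climbs from about 0 in serum to a mean of 4.85 at 72 h, and Lef1 falls below 0 at 24 h.

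Axin2 (chr11:108920349-108950783, plus strand in GRCm38) encodes a scaffold of the beta-catenin destruction complex and is the standard feedback target of the pathway. Axin2 had log2 values of 2.07, 2.01 and 2.32 in serum, 3.45, 3.44 and 3.55 at 6 h, 1.46, 1.93 and 2.21 at 24 h and 2.90, 2.41 and 2.82 at 72 h. All 6 h libraries lay above all other libraries, and the 24 h libraries overlapped those of serum. At 6 h the gene was 2.54-fold above serum (log2 change 1.34 ± 0.19 (SE), adjusted p = 4.96e-04). At 24 h the log2 change was -0.27 ± 0.19 (SE, adjusted p = 0.228). By 72 h it was 1.49-fold above serum (log2 change 0.58 ± 0.19 (SE), adjusted p = 0.0228), a call that was lost when serum replicate 1, serum replicate 2, 72 h replicate 1 or 72 h replicate 3 was left out (adjusted p from 0.0621 to 0.0896). Between 6 h and 24 h Axin2 fell 3.06-fold (log2 change -1.61 ± 0.19 (SE), adjusted p = 5.89e-05), and between 24 h and 72 h it rose 1.79-fold (log2 change 0.84 ± 0.19 (SE), adjusted p = 0.00609). The libraries are not stranded, so reads of Axin2 cannot be told apart from those of a row on the opposite strand that overlaps it, and the same holds for 2 such rows at Notum, 1 at Tcf7 and 2 at Tcf7l1.

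Nkd1 (chr8:88521344-88594887, plus strand) encodes an inhibitor that binds Dishevelled, the protein that relays the signal from the receptors. Nkd1 had log2 values of -1.48, -1.21 and -1.72 in serum, -0.079, -0.13 and 0.14 at 6 h, 0.18, 0.25 and 0.17 at 24 h and -0.51, -0.64 and -0.84 at 72 h. It was the lowest of the 10 genes in serum, with 30, 30 and 31 reads, and every 2i library lay above every serum library. The rise over serum was 2.73-fold at 6 h (log2 change 1.45 ± 0.18 (SE), adjusted p = 2.24e-04), 3.19-fold at 24 h (log2 change 1.67 ± 0.18 (SE), adjusted p = 1.86e-05) and 1.75-fold at 72 h (log2 change 0.81 ± 0.18 (SE), adjusted p = 0.00302). The level at 72 h was 1.82-fold below that at 24 h (log2 change -0.87 ± 0.18 (SE), adjusted p = 0.00442).

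Notum (chr11:120653788-120661175, minus strand), which encodes a secreted enzyme that removes the lipid of Wnt ligands, took another course. Notum had log2 values of 3.54, 3.60 and 3.82 in serum, 3.48, 3.60 and 3.83 at 6 h, 2.54, 2.48 and 2.42 at 24 h and 3.15, 3.40 and 3.07 at 72 h. The 6 h and serum libraries overlapped in full, and all 24 h libraries lay below them. It was 2.26-fold below serum at 24 h (log2 change -1.17 ± 0.13 (SE), adjusted p = 1.66e-05) and 1.36-fold below at 72 h (log2 change -0.45 ± 0.13 (SE), adjusted p = 0.0109), after a log2 change of -0.017 ± 0.13 at 6 h (adjusted p = 0.97). The 72 h libraries also lay below all serum and 6 h libraries, and above those of 24 h (log2 change from 24 h 0.73 ± 0.13 (SE, adjusted p = 0.0014)).

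Sp5 (chr2:70474923-70477729, plus strand) encodes a zinc finger transcription factor induced directly by beta-catenin, and its promoter window is the one printed above with 2 cores. Sp5 had log2 values of 1.64, 1.94 and 2.03 in serum, 2.88, 3.07 and 3.01 at 6 h, 1.96, 2.32 and 1.73 at 24 h and 2.03, 1.96 and 1.57 at 72 h. Its 6 h libraries lay above all others, and the serum, 24 h and 72 h libraries overlapped. At 6 h it was 2.17-fold above serum (log2 change 1.12 ± 0.17 (SE), adjusted p = 0.00105). The later log2 changes against serum were 0.13 ± 0.17 (SE, adjusted p = 0.512) at 24 h and -0.016 ± 0.17 (SE, adjusted p = 0.944) at 72 h. From 6 h to 24 h it fell 1.98-fold (log2 change -0.98 ± 0.17 (SE), adjusted p = 7.50e-04).

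Cdx1 (chromosome 18, minus strand) and Cdx2 (chr5:147300805-147307270, minus strand) encode caudal-type homeobox factors of posterior axis and gut, and CDX2 also specifies trophoblast. Cdx1 had log2 values of 0.089, -0.45 and 0.23 in serum, 3.48, 3.47 and 3.62 at 6 h, 3.93, 3.95 and 2.77 at 24 h and 4.75, 5.45 and 4.33 at 72 h. Reads were 35, 20 and 47 in serum and 1084, 1419 and 678 at 72 h. Every 2i library lay above every serum library with a gap of over 2 log2 units. The gene was 11.9-fold above serum at 6 h (log2 change 3.57 ± 0.34 (SE), adjusted p = 2.95e-05), with a like rise at 24 h (log2 change 3.59 ± 0.34 (SE), adjusted p = 6.84e-06), and was 29.6-fold above serum at 72 h (log2 change 4.89 ± 0.34 (SE), adjusted p = 4.95e-07). From rank 8 of the 10 genes in serum it moved to rank 2 at 72 h. At 24 h replicate 3 was lower than replicates 1 and 2, and without it the 24 h log2 change was 3.98. The change from 6 h to 24 h was then 0.41 (adjusted p = 0.195), against 0.021 with it. From 24 h to 72 h the change was 0.91 without it, against 1.30.

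Cdx2 had log2 values of -0.55, -0.50 and -0.11 in serum, 1.46, 1.24 and 1.01 at 6 h, -1.09, -1.51 and -4.64 at 24 h and -0.38, 0.14 and -0.98 at 72 h. Reads were 29, 25 and 48 in serum, 106, 98 and 87 at 6 h, 18, 14 and 2 at 24 h and 40, 46 and 22 at 72 h. All 6 h libraries lay above all others and all 24 h libraries below all serum libraries, and the log2 value of 24 h replicate 3 rests on 2 reads. The log2 change at 6 h was 1.62 ± 0.72 (SE, adjusted p = 0.173), and it passed the threshold when 24 h replicate 3 was left out of the fit (adjusted p = 0.00138) or when the recovered reads were weighted by limma voom (log2 change 1.58, adjusted p = 0.0227). At 24 h Cdx2 was 4.09-fold below serum (log2 change -2.03 ± 0.72 (SE), adjusted p = 0.0276). Without 24 h replicate 3 the log2 change was -0.92 (adjusted p = 0.0172), and without serum replicate 1, 2 or 3 the call was lost (adjusted p from 0.0523 to 0.0792), as it was when only serum and 24 h entered the fit (adjusted p = 0.077). The step from 6 h to 24 h was -3.65 ± 0.72 (SE, adjusted p = 0.00143), or -2.54 without 24 h replicate 3. The step from 24 h to 72 h was 2.01 ± 0.72 (SE, adjusted p = 0.0524), or 0.89 without 24 h replicate 3. The step passed the threshold with the replicate number as a block (adjusted p = 0.0269), by voom (adjusted p = 0.0312) and under 5 other alternatives.

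T (chr17:8434423-8442496, plus strand), also known as Brachyury, encodes the T-box factor that marks the primitive streak and mesoderm. T had log2 values of 0.28, 0.47 and 0.63 in serum, 0.019, 0.34 and 0.49 at 6 h, -0.25, -0.50 and -0.15 at 24 h and -0.57, -0.42 and 0.016 at 72 h. Serum and 6 h libraries overlapped, and all 24 h and 72 h libraries lay below all serum libraries. T was 1.70-fold below serum at 24 h (log2 change -0.76 ± 0.20 (SE), adjusted p = 0.00605) and 1.72-fold below at 72 h (log2 change -0.79 ± 0.20 (SE), adjusted p = 0.0061), after a log2 change of -0.18 ± 0.20 (SE, adjusted p = 0.68) at 6 h. Each library held between 29 and 82 reads of T. Among 10 other markers of primitive streak and mesoderm, 6 lay below the filter, with at most 36 reads in any library. Of the 4 tested, 2 were called higher and 1 lower at 6 h and again at 24 h. At 72 h 1 was called higher and 1 lower, with a median change of 0.072. The mean log2 value of 8 of the 10 was below 0 in serum, at 6 h and at 72 h, and that of 7 at 24 h. The summed linear level of those 10 markers was 4.31 to 5.24 in serum, 5.41 to 5.47 at 6 h, 5.95 to 9.42 at 24 h and 6.63 to 9.90 at 72 h, above serum without overlap at all 3 times, and their part in the level of T was not tested. For 9 trophoblast markers beside Cdx2 the sum was 107 to 118 in serum and 105 to 116 at 6 h. It was 97.7 to 156 at 24 h and 62.4 to 101 at 72 h, most of it from the keratins Krt8 and Krt18. Elf5 had at most 15 reads, but 8 of the 9 markers passed the filter and 1 lay below it. At 6 h 1 was called higher and 1 lower, and at 24 h 2 higher and 3 lower. At 72 h 2 were called higher and 4 lower. Their median changes were 0.082, -0.26 and -0.63 at 6, 24 and 72 h.

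Lef1, Tcf7 and Tcf7l1 encode TCF/LEF factors themselves. Lef1 (chr3:131110471-131224356, plus strand) had log2 values of 2.64, 2.51 and 2.77 in serum, 1.75, 1.61 and 1.90 at 6 h, -0.99, -0.58 and -0.26 at 24 h and -0.71, -1.04 and -0.53 at 72 h. The 6 h libraries lay below all serum libraries, and those of 24 h and 72 h lay below all 6 h libraries. Reads were 1014, 770 and 1351 in serum and 122, 78 and 115 at 72 h. Lef1 was 1.85-fold below serum at 6 h (log2 change -0.89 ± 0.19 (SE), adjusted p = 0.00936), 9.54-fold at 24 h (log2 change -3.25 ± 0.19 (SE), adjusted p = 2.84e-07) and 10.6-fold at 72 h (log2 change -3.40 ± 0.19 (SE), adjusted p = 1.16e-07). It went from rank 4 of the 10 genes in serum to rank 10 at 72 h, where its libraries overlapped those of Nkd1.

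Tcf7 (chr11:52252371-52283014, minus strand) had log2 values of 4.20, 4.09 and 4.30 in serum, 4.23, 4.02 and 4.21 at 6 h, 4.19, 4.40 and 4.45 at 24 h and 4.45, 4.23 and 4.30 at 72 h. All 4 groups overlapped, and the gene was not called in any of the 5 comparisons. Its log2 changes against serum were -0.044, 0.15 and 0.13 at 6, 24 and 72 h, each with an SE of 0.11 (adjusted p = 0.898, 0.258 and 0.357).

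Tcf7l1 (chr6:72626378-72789254, minus strand) had log2 values of 4.92, 4.81 and 5.08 in serum, 5.47, 5.53 and 5.64 at 6 h, 3.84, 4.49 and 4.95 at 24 h and 5.35, 4.85 and 5.25 at 72 h. It had the highest mean of the 10 genes in all 4 groups, though its 24 h libraries overlapped those of Tcf7 and its 72 h libraries those of Cdx1. The 6 h libraries lay above all serum libraries, but the log2 change of 0.61 ± 0.23 (SE, adjusted p = 0.109) did not pass the threshold. The later changes against serum were -0.51 ± 0.23 (SE, adjusted p = 0.0731) at 24 h and 0.21 ± 0.23 (SE, adjusted p = 0.473) at 72 h. From 6 h to 24 h Tcf7l1 fell 2.18-fold (log2 change -1.12 ± 0.23 (SE), adjusted p = 0.00195), and from 24 h to 72 h it rose 1.65-fold (log2 change 0.72 ± 0.23 (SE), adjusted p = 0.0355), a call that 7 of the 12 libraries, left out in turn, each ended. Without 24 h replicate 3 the 24 h change was -0.77 (adjusted p = 0.00362), and with the replicate number as a block it was called as well (adjusted p = 0.0437). With the trend by genomic span removed, the fall from 6 h to 24 h was -0.56 (adjusted p = 0.00612) and the change from 24 h to 72 h was 0.31 (adjusted p = 0.119), which ended that call.

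**Figure D2:**
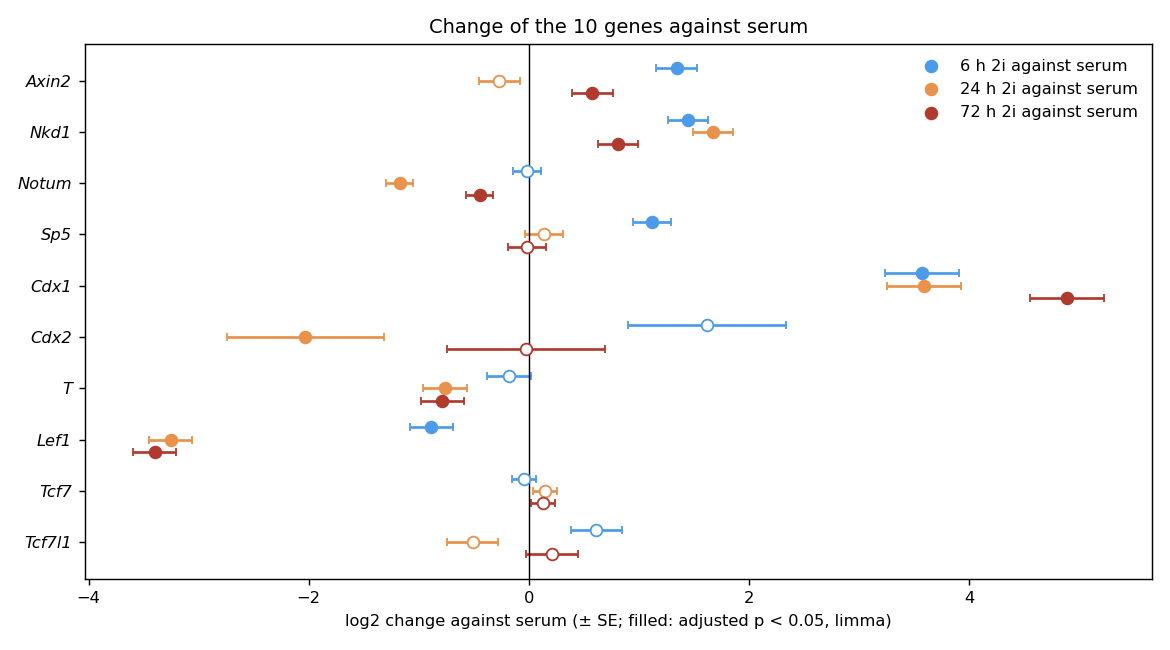
Log2 change against serum (horizontal axis, ± SE from limma) of each of the 10 genes (vertical axis) at 6, 24 and 72 h of 2i, with filled points for an adjusted p under 0.05. Cdx1 lies to the right at all 3 times, up to 4.89, Lef1 to the left at all 3, down to -3.40, and the points of Axin2 and Sp5 move back from their 6 h position.

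Between 6 h and 24 h, 7 of the 10 genes fell (Axin2, Notum, Sp5, Cdx2, T, Lef1 and Tcf7l1) and 0 rose, while 59.4% of all tested genes were called, 28.0% lower and 31.4% higher. The count of 0 higher is from limma, in which Nkd1, Cdx1 and Tcf7 had log2 changes of 0.23, 0.021 and 0.19. Voom on the recovered reads also called 7, against 59.6% of all genes tested that way. With the trend by genomic span removed 9 were called, against 57.3% of all tested genes. Of these 9, Nkd1 (0.63, adjusted p = 0.0249) and Tcf7 (0.30, adjusted p = 0.0232) were higher. The median change of the 10 genes in this step was -1.05, against 0.077 over all genes. Between 24 h and 72 h, 4 genes rose (Axin2, Notum, Cdx1 and Tcf7l1) and Nkd1 fell, against 31.6% of all tested genes called, 15.8% higher and 15.7% lower. When only these 2 groups were fitted, 12.9% of all genes were called and the calls of Axin2, Cdx1 and Tcf7l1 were lost (adjusted p = 0.0575, 0.0768 and 0.148). With the trend by genomic span removed, Lef1 (-0.51, adjusted p = 0.0103, against -0.15 without that step) and Cdx2 (adjusted p = 0.0294) were called as well. Libraries of the 2 times compared did not overlap for 8 of the 10 genes from 6 h to 24 h (61.8% of all tested genes) and for 5 from 24 h to 72 h (33.5%). The 24 h libraries enter both steps, so that the fall to 24 h and the rise from it are not independent. Genes covering a long stretch of genome were lower at 24 h: the median log2 change against serum was 0.53 in the shortest of 5 equal classes of genes by span and -0.41 in the longest. Of the 10 genes, Nkd1, Lef1 and Tcf7l1 are in the longest class and Sp5 in the shortest. With this trend removed the 24 h change of Tcf7l1 turned to 0.026 and that of Sp5 to -0.20, and the 24 h change of Lef1 was -2.79. Without 24 h replicate 3, 7, 8 and 6 of the 10 genes were called at 6, 24 and 72 h, with Cdx2 and Tcf7l1 added at 6 h and Axin2 and Tcf7l1 at 24 h (Axin2 log2 change -0.44, adjusted p = 0.04), while 2434, 8845 and 7321 of all tested genes were called, against 1920, 7786 and 6429 with it. For the step from 24 h to 72 h the fit without it called 6 of the 10 genes and 6692 of all, against 5 and 3886.

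By level, the order in serum was Tcf7l1, Tcf7, Notum, Lef1, Axin2, Sp5, T, Cdx1, Cdx2 and Nkd1, in which Axin2 and Sp5, and Cdx1 and Cdx2, overlapped between neighbours. The means ran from 4.94 ± 0.14 (SD, n = 3) for Tcf7l1 to -1.47 ± 0.25 for Nkd1. At 6 h the order was Tcf7l1, Tcf7, Notum, Cdx1, Axin2, Sp5, Lef1, Cdx2, T and Nkd1, with overlaps among Notum, Cdx1 and Axin2 and between T and Nkd1. At 24 h it was Tcf7l1, Tcf7, Cdx1, Notum, Sp5, Axin2, Nkd1, T, Lef1 and Cdx2, with overlaps between Tcf7l1 and Tcf7, Sp5 and Axin2, and T and Lef1. At 72 h it was Tcf7l1, Cdx1, Tcf7, Notum, Axin2, Sp5, T, Cdx2, Nkd1 and Lef1. There the neighbours from T to Lef1 overlapped in turn, as did Tcf7l1 with Cdx1 and Cdx1 with Tcf7.

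Some genes outside the 10 followed courses like theirs. Over the 12 libraries the 5 tested genes most like Axin2, by Pearson correlation of log2 values among 12296 genes, were Meis2 (r = 0.984), Pou2f3 (r = 0.979), Meaf6 (r = 0.973), AA986860 (r = 0.969) and Sash1 (r = 0.966). Meis2, a homeobox gene, had log2 changes of 2.12, -0.09 and 0.89 at 6, 24 and 72 h. Those most like Cdx1 were Dkkl1 (r = 0.984), Klf2 (r = 0.981), Hoxb13 (r = 0.980), A4galt (r = 0.979) and Epm2a (r = 0.978). Klf2, a pluripotency factor, had log2 changes of 1.19, 1.16 and 1.33, and Hoxb13, a posterior homeobox gene, 2.77, 2.31 and 3.67. These points share libraries and 4 group means, and the correlations are given as a description only. Within the 10, the highest r over the 12 libraries was 0.925, between Axin2 and Tcf7l1, and the lowest was -0.81, between Cdx1 and Lef1.

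The rest of the pathway was read from lists of genes by role, with the shares of all tested genes called being those given above. Of 21 Wnt ligands and genes of their secretion, 14 lay below the filter. Among the 7 tested, 1 was higher and 0 lower at 6 h, 2 were higher and 2 lower at 24 h and 1 was higher and 3 lower at 72 h, with median changes of 0.28, 0.0021 and -0.30. Wnt7b rose at 72 h (log2 change 0.76 ± 0.18, adjusted p = 0.00453), and the ligand Wnt4 fell (-1.56 ± 0.24, adjusted p = 2.61e-04). The ligand Wnt8a was also called lower at 72 h. It held 1 to 71 reads in a library, with mean log2 values of 0.58 in serum and -4.61 at 72 h, and passed the filter only through the groups where it was high, so no size of its change is given. Of 12 tested receptors and co-receptors, 3 were higher and 3 lower at 6 h, 5 were higher and 4 lower at 24 h and 4 were higher and 5 lower at 72 h, with median changes of -0.016, 0.20 and 0.20. Receptors Fzd10 (1.41 ± 0.12, adjusted p = 2.52e-06) and Ror2 (1.34 ± 0.15, adjusted p = 2.58e-05) rose most at 72 h, and Fzd7 (-2.05 ± 0.10, adjusted p = 4.63e-08) and the R-spondin receptor Lgr4 (-1.22 ± 0.10, adjusted p = 2.31e-06) fell most.

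In the cytoplasm, of 14 tested genes of the destruction complex and of signal transduction, 1 was higher and 0 lower at 6 h, 4 were higher and 8 lower at 24 h and 3 were higher and 6 lower at 72 h, with median changes of 0.021, -0.31 and -0.10. Kinase gene Csnk1e (1.49 ± 0.12, adjusted p = 1.90e-06) and the ubiquitin ligase gene Btrc (0.98 ± 0.093, adjusted p = 6.24e-06) rose most at 72 h, and Tnks, a tankyrase that marks Axin for degradation (-1.12 ± 0.32, adjusted p = 0.0122), and Apc (-0.87 ± 0.29, adjusted p = 0.0262) fell most. In the nucleus, of 12 tested co-factors of beta-catenin, 1 was higher and 1 lower at 6 h, 3 were higher and 6 lower at 24 h and 1 was higher and 3 lower at 72 h, with median changes of -0.0028, -0.48 and -0.20. The co-repressor gene Tle4 (-1.48 ± 0.10, adjusted p = 5.80e-07) and Chd8 (-1.42 ± 0.24, adjusted p = 4.79e-04) fell most at 72 h, and Aes (0.58 ± 0.19, adjusted p = 0.0215) was the only gene of this list that rose then.

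Outside the cell and at its membrane, of 8 tested Wnt inhibitors beside the feedback genes above, 3 were higher and 2 lower at 6 h, 4 were higher and 2 lower at 24 h and 3 were higher and 1 lower at 72 h, with median changes of 0.40, 0.18 and 0.013. Dkk3 (1.71 ± 0.18, adjusted p = 1.29e-05) and Apcdd1 (1.67 ± 0.18, adjusted p = 1.44e-05) rose most at 72 h, and Sfrp5 was the only one that fell (-1.03 ± 0.23, adjusted p = 0.00297). Of 11 tested further genes known as beta-catenin targets in other tissues, 3 were higher and 2 lower at 6 h, 2 were higher and 6 lower at 24 h and 2 were higher and 6 lower at 72 h, with median changes of 0.093, -0.72 and -0.85. Tnfrsf19, a receptor gene, rose most at 72 h (1.63 ± 0.11, adjusted p = 4.47e-07). Myc (-5.79 ± 0.11, adjusted p = 1.26e-10) and Ccnd1, a G1 cyclin (-2.67 ± 0.11, adjusted p = 1.24e-08), fell most. Both are also known as targets of the MEK and ERK pathway, which 2i inhibits, and its part in these falls was not tested. Sp8, a relative of Sp5, rose at 6 h (log2 change 1.80 ± 0.24, adjusted p = 3.42e-04) and was named after its values were seen. Of 7 genes known as repressed by TCF7L1 in ESCs, 6 were higher and 1 lower at 6 h, 4 were higher and 1 lower at 24 h and 6 were higher and 1 lower at 72 h, with median changes of 0.79, 0.50 and 1.33. The largest rises at 72 h were those of Nanog (1.72 ± 0.17, adjusted p = 9.03e-06) and Tfcp2l1 (1.68 ± 0.24, adjusted p = 1.26e-04), both pluripotency factors, and Nr0b1 fell (-0.92 ± 0.18, adjusted p = 0.0011).

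**Figure D3:**
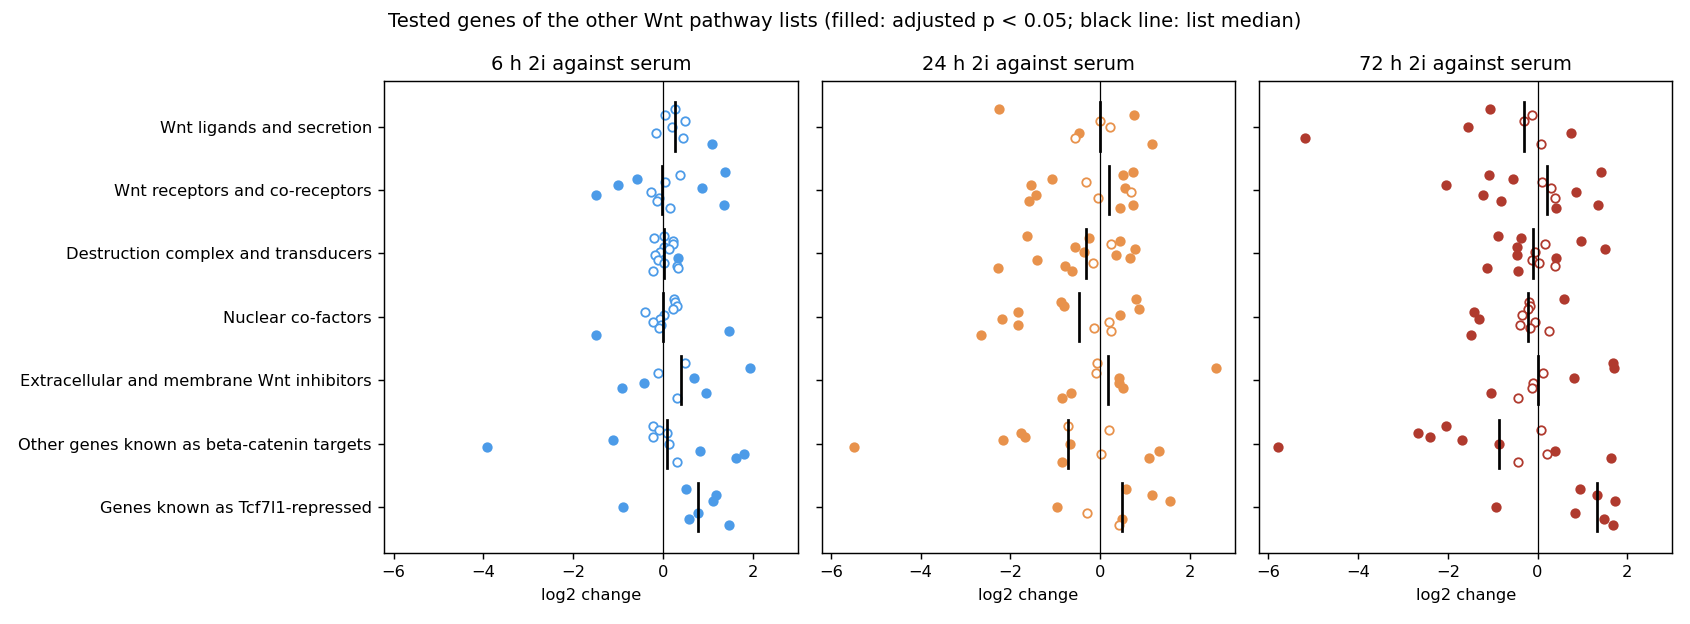
Log2 change against serum (horizontal axis) of each tested gene in the 7 other pathway lists (vertical axis) at 6, 24 and 72 h of 2i, with filled points for an adjusted p under 0.05 and a black line at each list's median. The 7 genes known as repressed by TCF7L1 have medians of 0.79, 0.50 and 1.33, and the further beta-catenin targets have medians of 0.093, -0.72 and -0.85.

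The cells carried ESC markers in all groups. The 10 markers checked had means of log2 0 or more in every group. Their summed linear level was 1714 to 2022 in serum, 1528 to 1808 at 6 h, 2141 to 4188 at 24 h and 2371 to 3759 at 72 h. The sum lay above serum without overlap at 24 h and 72 h, but not all 10 rose. At 6 h 3 were called higher and 4 lower, at 24 h 5 higher and 2 lower, and at 72 h 6 higher and 2 lower. Of the markers of other cell types, the most abundant over the 12 libraries were Krt8 (trophoblast, mean log2 value 5.69), Lama1 (primitive endoderm, 3.23), Nes (neural, 2.24), Col1a1 (fibroblast, 2.14) and Wnt3 (primitive streak, 0.33). The summed level of 10 neural markers was 10.5 to 12.4 in serum, 6.79 to 10.4 at 24 h and 4.92 to 6.87 at 72 h. That of 10 fibroblast markers was 9.65 to 12.3 in serum, 6.96 to 9.47 at 24 h and 5.80 to 5.92 at 72 h, and that of 10 primitive endoderm markers 23.4 to 28.1 in serum, 14.4 to 22.03 at 24 h and 20.7 to 29.3 at 72 h. The sums of all 3 lists overlapped serum at 6 h and lay below it at 24 h without overlap. Those of the neural and fibroblast markers also lay below it at 72 h. Of 3 tested neural markers 1 was called higher and 1 lower at 24 h, and 2 lower at 72 h. Of 3 tested fibroblast markers 1 was called lower at 24 h and 3 at 72 h. Of 5 tested primitive endoderm markers 1 was higher and 2 lower at 24 h, and 1 higher and 1 lower at 72 h. The median changes at 24 h were 0.31, 0.040 and -0.55 for these 3 lists in turn. The part of these markers in the changes of the 10 genes was not tested. Library depth was 10303768 to 15263930 reads, recovered from the deposited values.

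H3K9me2, a histone mark of repressed chromatin, was read within 5 kb of the start of each gene, in 2-kb bins scaled to library size. In this window the bound libraries lay below the input in every group at all 10 genes. Over the whole gene span, both bound libraries of Nkd1 lay above the input in serum (35.3 and 28.0 against 21.6 scaled reads per bin) and at 24 h (21.8 and 23.6 against 20.3), and those of the other 9 genes lay below it. In serum the bound signal relative to input ranked from percentile 4.50 of all genes (Tcf7l1) to percentile 67.0 (Nkd1). Nkd1 had 14.9 and 15.5 scaled bound reads per bin in serum, 14.1 and 9.69 at 24 h and 7.04 and 3.94 in LT2i. Sp5 had 4.65 and 3.79 in serum, 3.45 and 4.66 at 24 h and 1.45 and 1.41 in LT2i. At Axin2 the values were 8.96 and 6.99, 8.13 and 7.31 and 10.0 and 8.63. For Nkd1 and Sp5 the LT2i libraries lay below those of serum, and for Axin2 they overlapped.

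At 24 h of 2i, limma called 0 of 24051 gene starts (0% called, 2026 at an unadjusted p under 0.05), and 0 of the 10. The 10 changes lay between -0.38 and 0.33. In LT2i, 7 of the 10 were called lower and 0 higher, against 44.0% of all gene starts called, 41.0% lower and 2.99% higher. The median change of the 10 was -1.20 on the log2 scale, beside -0.52 over all genes. Notum was lowest relative to serum (log2 change -1.69 ± 0.21 (SE), adjusted p = 0.00126), followed by Sp5 (-1.55 ± 0.22 (SE), adjusted p = 0.00181), Nkd1 (-1.53 ± 0.31 (SE), adjusted p = 0.0056) and Cdx1 (-1.42 ± 0.19 (SE), adjusted p = 0.00149). Tcf7, T and Cdx2 had changes of -1.25, -1.15 and -1.03. The sizes, SEs and order at Notum, Sp5 and Cdx2 are limited by few reads in LT2i, as given below. The call of T was lost without serum replicate 1 (adjusted p = 0.0931), serum replicate 2 (adjusted p = 0.0526) or LT2i replicate 2 (log2 change -0.69, adjusted p = 0.093), and that of Cdx2 without serum replicate 1 (adjusted p = 0.0646). Not called were Tcf7l1 (-0.70 ± 0.38 (SE), adjusted p = 0.163), Lef1 (-0.47 ± 0.24 (SE), adjusted p = 0.15) and Axin2 (0.23 ± 0.21 (SE), adjusted p = 0.398).

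When each library was centred on the median over gene starts, which raised every LT2i change by 0.74, only Notum, Sp5 and Cdx1 of the 10 were called lower and Axin2 was called higher (log2 change 0.97, adjusted p = 0.00931). Over all gene starts 2156 were then called lower and 6218 higher, and the share of calls that were higher moved from 6.78% to 74.3%. Within 2 kb of the start only Notum and Tcf7 of the 10 were called, beside 4688 over all genes, 4410 of them lower. Over the whole gene span 8 of the 10 were called, all lower, beside 12403 over all genes, 11437 of them lower. Axin2 (-1.21, adjusted p = 0.00575), Lef1 (-0.68, adjusted p = 0.00553) and Tcf7l1 (-1.67, adjusted p = 0.00172) were gained there, and Sp5 (0.19) and Cdx2 (-0.59) were lost. The span of Sp5 covers 2 bins, with 1.10 and 1.21 scaled bound reads per bin in serum and 1.22 and 1.41 in LT2i. Those are close to the fill value of a bin without reads, so the 0.19 cannot show a change of the mark. With the input subtracted 8 of the 10 were called, of which 7 were lower and Axin2 was higher (0.69, adjusted p = 0.0301). Over all gene starts 10146 were then called, 9192 lower and 954 higher. The windows held few reads, such as at most 23 and 18 bound reads at Sp5 in serum and 7 and 6 in LT2i. Bins without a read carry a small fill value that these counts include, so the true counts are lower. Counts in LT2i were also low at the starts of Notum (9 and 10) and Cdx2 (8 and 7). Sp5 had 1.45 and 1.41 scaled reads per bin at its start in LT2i, also close to the fill value. The fill value thus limits the sizes and SEs of the changes at these starts and their order. No RNA-seq library of LT2i is among the 12, so the mark in LT2i and expression at 72 h are not of matched cells.

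**Figure D4:**
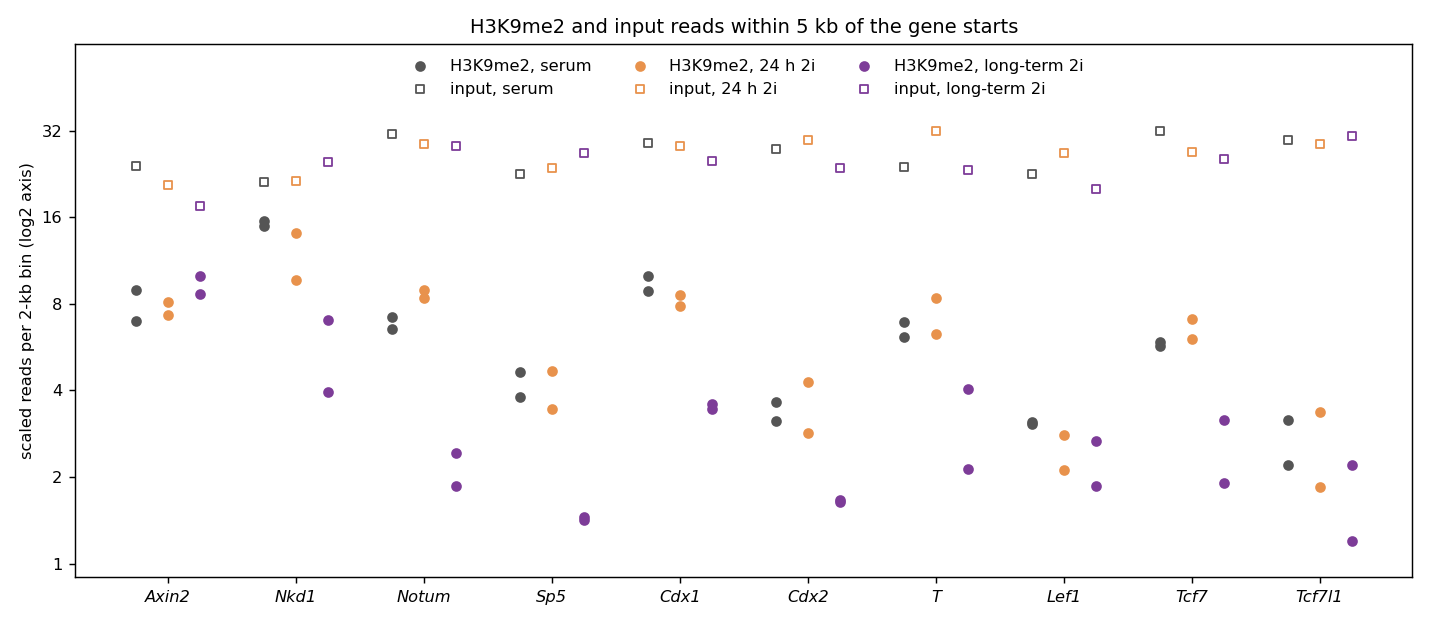
Scaled reads per 2-kb bin within 5 kb of the gene start (vertical axis, log2) at the 10 genes (horizontal axis) in serum, 24 h of 2i and LT2i, with filled circles for each H3K9me2 library and open squares for the input. The circles of LT2i lie below those of serum at Nkd1, Notum, Sp5, Cdx1, Cdx2, T, Lef1 and Tcf7, and every circle lies below its input.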

How the data were processed

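RNA-seq (12 E14 libraries, unstranded TruSeq kit) and H3K9me2 ChIP-seq (6 bound libraries, 3 inputs) were used. The authors deposited log2 expression values, which by their steps are scaled for the length of each gene and for depth and have the same 75th percentile in every library, and log2 reads per 2-kb bin scaled to library size for ChIP-seq. The submitters' processing notes name Trim Galore 0.3.5, TopHat2 2.0.11 and Bowtie2, and the tool that counted reads was not given in the sources used here. Gene positions are on GRCm38. Methylation calls are on another build and were not used here.

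Whole reads were recovered from the RNA values for 99.8% of 25965 rows, within 0.02 reads. ChIP libraries held 14396552 to 23785135 reads, and values for few reads carry a counting error beyond the spread shown. Groups were compared with limma 3.58.1 (R 4.3.3), with the group means of each assay in 1 fit. The eBayes step used a trend for expression and no trend for H3K9me2. Benjamini-Hochberg adjustment was over 12306 genes or 24051 gene starts, with a threshold of 0.05. The fits were tested on simulated data. Alternatives covered the filter, scaling, samples in the fit, replicate block, floor, span trend, call threshold, windows, input and each library left out. Windows and sequences came from RefSeq.

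Named were the 10 genes, up to 2 called genes with the largest rise and fall at 72 h in each pathway list, the 5 genes most like Axin2 and Cdx1, the most abundant marker of each other cell type, and a few said to be chosen after their values were seen. One gene that this rule would name is not reported here. The genes and lists were chosen with earlier results of these data known.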

Additional observations from a re-analysis of the deposited data

Results flagged for a closer look

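For 12 values the change against serum differed between neighbouring times, by the limma contrast of the times with adjustment over all tested genes. From 6 h to 24 h, 7 genes moved down on the log2 scale: Axin2 by -1.61, Notum by -1.16, Sp5 by -0.98, Cdx2 by -3.65, T by -0.58, Lef1 by -2.37 and Tcf7l1 by -1.12. For Axin2 and Sp5 the 24 h libraries overlapped those of serum, for Cdx2 all of them lay below serum, and for Lef1 the fall added to one already called at 6 h. The value of Cdx2 rests in part on 24 h replicate 3, which held 2 reads of this gene.

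From 24 h to 72 h, 5 genes moved: Axin2 by 0.84, Notum by 0.73, Cdx1 by 1.30 and Tcf7l1 by 0.72 upwards, and Nkd1 by -0.87 downwards. The libraries of the 2 times did not overlap for Axin2, Notum, Cdx1 and Nkd1 and overlapped for Tcf7l1. Both sets of steps use the same 24 h libraries. Without 24 h replicate 3 the rise of Cdx1 from 24 h to 72 h was 0.91.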

How the results depend on the processing

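Of 29 changes in expression called for the 10 genes over the 5 comparisons, 15 were called under every alternative in which the gene was tested and 0 reversed (Nkd1 and T were not tested under the stricter filter); of the 7 H3K9me2 calls, only that of Notum was kept throughout. Fits of only the 2 groups compared called 3585 genes at 6 h and 1587 from 24 h to 72 h, with 2 of the 10 in the latter. Asking for an absolute log2 change of 1 or more left 652, 3378, 2579, 2713 and 1174 genes (6, 24 and 72 h against serum, 24 h against 6 h, 72 h against 24 h), with 2 of the 10 at 72 h and 1 from 24 h to 72 h. Changes that were not called turned sign: by quantile normalisation Cdx1 from 6 h to 24 h (-0.014) and T (0.0063) and Tcf7 (0.047) from 24 h to 72 h; with the span trend removed Sp5 (-0.20) and Tcf7l1 (0.026) at 24 h, Cdx1 from 6 h to 24 h (-0.027) and Sp5 (0.072) and T (0.13) from 24 h to 72 h. Tcf7l1 at 24 h was -0.51 in the reported fit, and the others lay nearer to 0. Raising values to at least -2 called Cdx2 from 24 h to 72 h (adjusted p = 0.0144). The cause was not tested.

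Leaving out 1 library at a time gave 1230 to 2434 genes called at 6 h, with counts over 1.5 times below 1920 without serum replicate 1 (1268), 6 h replicate 1 (1275) or 6 h replicate 2 (1230). From 24 h to 72 h it gave 2427 (without 72 h replicate 1) to 6692 genes (without 24 h replicate 3). For uncalled changes the ranges crossed 0: Notum -0.11 to 0.065 and Tcf7 -0.096 to 0.024 at 6 h, Sp5 -0.023 to 0.27 at 24 h, Sp5 -0.13 to 0.12 and Cdx2 -0.30 to 0.26 at 72 h, Cdx1 -0.18 to 0.41 from 6 h to 24 h, and T -0.19 to 0.097, Sp5 -0.29 to 0.0067, Tcf7 -0.098 to 0.031 and Lef1 -0.33 to 0.027 from 24 h to 72 h. The fall of T from 6 h to 24 h lost its call without 6 h replicate 2 or 3 or 24 h replicate 2 (adjusted p = 0.0725, 0.0965 and 0.091).

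Over the 4 RNA groups the replicate numbers were not taken as pairing the libraries, since the labels do not state a pairing. The p-values of the reported fit therefore do not use one. The same-number pairs had a median r of 0.29, against -0.21 for other pairs, and a lowest r of -0.25. Of these 18 pairs, 15 correlated above 0.1. For serum with 6 h, serum with 24 h and 6 h with 72 h, 3 of the 6 pairings of groups, all 3 did (lowest r 0.16, 0.11 and 0.13). With the replicate block, 2569, 8739, 7498, 8393 and 5791 genes and 5, 7, 6, 7 and 6 of the 10 were called in the same order of comparisons, with Tcf7l1 added at 24 h (adjusted p = 0.0437) and Cdx2 from 24 h to 72 h (adjusted p = 0.0269). For H3K9me2 the block called 10442 gene starts and 8 of the 10 in LT2i, with same-number correlations between -0.011 and 0.054. Voom on the recovered reads, chosen after seeing the data, called 1901, 7746, 6436, 7305 and 3970 genes and 6, 6, 6, 7 and 6 of the 10.

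For H3K9me2 in LT2i, bins over the whole gene span gave -1.21 at Axin2 and 0.19 at Sp5. The value at Sp5 rests on bins that hold almost no reads. Bins within 2 kb of the start called 4688 genes and gave -0.13 at Axin2, 0.075 at Cdx2 and 0.28 at Lef1. Subtracting the input called 3 gene starts at 24 h. In LT2i it called 10146 gene starts and 8 of the 10, with Axin2 higher (0.69). Median centring gave 0.27 at Lef1 and 0.037 at Tcf7l1. Leaving out 1 bound library called 5906 (without serum replicate 1) to 10379 gene starts. Few reads limit these values, as they do those of Cdx2 and Nkd1 in expression.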
